A study of Homo sapiens with 6 samples.

Results

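Divergent transcripts are noncoding RNAs that start beside the promoter of a coding gene and run away from it on the opposite strand, and the gene nomenclature marks them with the name of that coding gene followed by -DT. They were followed here in the nascent RNA of the human melanoma cell line A375, with and without a transfected plasmid for the phosphatase PRL3. The members were chosen by name and by a floor on the reads, as noncoding genes whose current symbol ends in -DT and that had at least 10 reads in each of the 6 libraries. This gave 335 of the 578 -DT genes among the 58243 gene identifiers counted. The other 243 fell short of the floor, 30 of them with 0 reads in every library. All 335 are long noncoding RNA (lncRNA) genes, and 334 have a coding gene of the matching name, always on the opposite strand. ARHGAP11B-DT has none in the annotation used.

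Newly made RNA had been labelled with the uridine analogue 4-thiouridine (4sU) at 500 µM for 20 min, tagged with biotin, captured on streptavidin, depleted of ribosomal RNA and sequenced with strand information. The 3 EV libraries (labelled B1, B2 and B3) came from A375 cells stably transfected with the empty vector, and the 3 PRL3 libraries (B9, B10 and B11) from A375 cells stably transfected with a plasmid for human PRL3, which the study describes as fused to an HA tag. Both lines were kept in the same medium with serum, L-glutamine and Hygromycin B. The comparison is thus between 1 transfected line and another, and the labels do not say whether the libraries of a group came from separate cultures, so p-values measure the spread between these libraries, which may be technical.

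Between 36532207 and 57952035 reads per library lay on genes. PTP4A3, the gene of PRL3, had 161 to 279 normalized counts in EV and 22065 to 28767 in PRL3 libraries, as the labels imply. Of the lineage markers, SOX10 was present at 18852 to 28364 normalized counts in EV and 10593 to 13992 in PRL3, whereas the pigment cell genes MLANA and TYR had at most 2.06 in any library, and the blood markers PTPRC and CD3E summed to at most 10.9. Several markers separated the groups without overlap: S100B (2342 to 3164 in EV, 1053 to 1121 in PRL3), SOX9 (199.7 to 348 and 52.8 to 73.1) and the epithelial keratin KRT14 (1083 to 1217 and 352 to 614) were lower in PRL3 libraries like SOX10, and MITF was higher (1208 to 1492 and 1714 to 1809). The groups also differed in the share of uniquely aligned reads outside annotated exons of the counted strand, 33.3% ± 6.75 (SD, n = 3) in EV and 66.3% ± 3.18 (SD, n = 3) in PRL3 libraries, with EV B3 at 41.1% nearest to PRL3. The part of these differences in the results on the divergent transcripts was not tested.

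Promoters rich in CG dinucleotides usually recruit RNA polymerase II to a pair of start sites that face away from each other. Elongation towards the coding gene is favoured, while in the other direction early poly(A) signals, the Integrator complex and other termination factors stop the polymerase, and the nuclear exosome degrades most of the short RNA that results. Divergent transcripts are therefore scarce in total RNA, and short metabolic labelling is a way to see them. Those with a -DT name are the ones stable or long enough to have been annotated as genes.

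The annotation places both starts close together in most pairs. Between the starts of the canonical transcripts (the 1 transcript of each gene that the annotation takes as representative) lay a median of 176 bp (interquartile range 106 to 346) in GRCh38, with 215 of the 334 pairs at 0 to 300 bp, 289 at 0 to 1000 bp, 28 further apart and 17 with crossing starts. The 28 include GARS1-DT (32053 bp), C2orf74-DT (17238 bp), ISL1-DT (3951 bp) and SH3TC2-DT (1030 bp), all named below. By gene bounds, the starts of C2orf74-DT, ISL1-DT and SH3TC2-DT lie 99, 116 and 76 bp from those of their coding genes. For GARS1-DT this distance is -14753 bp, where the minus sign means that the starts cross. Over the 334 pairs the distance between canonical starts ran from -173314 to 109755 bp. Most of the named genes can thus be shown by the short segment that separates them. The segments below run from the start of the -DT transcript to the start of the coding gene, 5′ to 3′ on the coding gene's strand, and were chosen because the results turn on these pairs. Capitals mark the CCAAT box (the letters CCAAT) and the core of the GC box (GGGCGG) on either strand, so that a motif on the other strand appears as its reverse complement. The first 3 belong to transcripts higher in PRL3 cells (chr3:136752378-136752630, minus strand, chr11:83193642-83193712, plus strand, and chr5:88268845-88268883, minus strand).
STAG1-DT: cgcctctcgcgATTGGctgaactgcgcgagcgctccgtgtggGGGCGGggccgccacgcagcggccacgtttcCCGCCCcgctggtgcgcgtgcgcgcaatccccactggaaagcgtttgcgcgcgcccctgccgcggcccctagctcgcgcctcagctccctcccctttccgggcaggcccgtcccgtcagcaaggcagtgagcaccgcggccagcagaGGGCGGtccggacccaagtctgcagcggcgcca
ANKRD42-DT: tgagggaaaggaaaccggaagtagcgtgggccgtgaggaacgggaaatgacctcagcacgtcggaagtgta
TMEM161B-DT: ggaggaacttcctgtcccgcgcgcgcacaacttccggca
The next 2 belong to the pair in which the divergent transcript gained most on its coding gene and to a V-ATPase gene (chr11:65570273-65570477, plus strand, and chr16:67481157-67481314, minus strand).
ZNRD2-DT: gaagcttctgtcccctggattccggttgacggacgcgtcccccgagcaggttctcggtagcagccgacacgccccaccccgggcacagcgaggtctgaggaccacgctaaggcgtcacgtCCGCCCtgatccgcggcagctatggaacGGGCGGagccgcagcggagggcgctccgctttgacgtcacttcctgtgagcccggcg
ATP6V0D1-DT: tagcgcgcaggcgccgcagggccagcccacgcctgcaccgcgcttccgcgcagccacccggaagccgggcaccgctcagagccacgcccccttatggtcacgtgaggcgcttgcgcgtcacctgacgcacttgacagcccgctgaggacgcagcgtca
The last 3 belong to divergent transcripts that were lower in PRL3 cells, or lower relative to the coding gene (chr2:3558333-3558439, minus strand, chr22:46762564-46762650, plus strand, and chr20:44966402-44966512, plus strand).
RNASEH1-DT: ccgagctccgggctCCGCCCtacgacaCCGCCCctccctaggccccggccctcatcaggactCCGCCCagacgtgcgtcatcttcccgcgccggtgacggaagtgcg
TBC1D22A-DT: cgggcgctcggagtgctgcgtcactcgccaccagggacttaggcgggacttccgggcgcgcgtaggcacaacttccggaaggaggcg
STK4-DT: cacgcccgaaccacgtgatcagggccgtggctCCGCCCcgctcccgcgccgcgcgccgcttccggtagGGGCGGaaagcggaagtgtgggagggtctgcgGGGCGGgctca
Over the 12 segments read for named pairs, GC content was 53.5% to 75.7%.

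The wider promoter windows (250 bases before to 50 after the canonical start) of the members are described by the same and other letters. The window of a member and that of its coding gene often overlap, so they are not separate observations. The median number of CG dinucleotides was 31 in the 335 members, 32 in their coding genes, 27 in all 14443 protein-coding genes tested and 7 in the 4328 other lncRNA genes tested. GGGCGG, the core of the GC box, was found on either strand in 71.0% of the members, 71.4% of protein-coding genes and 32.0% of other lncRNA genes. TATAAA, the letters of the TATA box, was found on either strand in 4.18%, 6.16% and 14.0%, and CCAAT in 27.5%, 36.4% and 33.3%. In the first 1000 bases of the transcribed strand, the poly(A) signal AATAAA was found in 37.0% of the members, against 16.0% of their coding genes, 18.5% of protein-coding genes and 39.4% of other lncRNA genes. The 5′ splice site letters GGTAAG were found in 18.8%, 26.5%, 24.8% and 21.8% of the same groups. In CG dinucleotides and GGGCGG the members lay nearer to coding genes than to other lncRNA genes. This largely follows from their choice, as members are named for starting beside coding genes. In CCAAT the members lay below both, and their AATAAA share lay near that of other lncRNA genes. A match is a run of letters, not a site in use.

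In both lines the divergent transcripts were minor products. They took 0.120% ± 0.0232 (SD, n = 3) of the reads on genes in EV, against 0.268% ± 0.0107 (SD, n = 3) in PRL3, with no overlap between the groups (0.102% to 0.146% against 0.256% to 0.275%). As a share of all uniquely aligned reads, which also holds the reads outside exons, the values were 0.0733% ± 0.00654 and 0.0844% ± 0.00433 (SD, n = 3 each), and the highest EV library (0.0796%) lay just under the lowest PRL3 library (0.0799%). An exact two-sided permutation test gives p = 0.1 for each, the smallest p that 3 against 3 libraries allow. In bulk RNA, fewer cells with a transcript and less of it per cell cannot be told apart. The size of the difference thus depended on what the members were measured against.

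Across all 23884 genes that passed edgeR's filter on low counts, with TMM scaling and edgeR's quasi-likelihood test, 132 of the 335 divergent transcripts were higher in PRL3 cells, 7 were lower and 196 were not called at a Benjamini-Hochberg adjusted p of 0.05. Over all genes tested, 20.0% were higher and 22.7% lower. The median log2 fold change of the members was 0.71 (interquartile range 0.24 to 1.09), against 0.11 over all genes and -0.15 over protein-coding genes, of which 2191 were higher and 4571 lower. Of the members, 282 had a fold change above 0, and 82 were more than 2-fold higher and called. Every PRL3 library lay above every EV library for 173 members and below for 13, where 29.7% and 26.6% of all genes did so.

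The divergent transcripts were much like other noncoding genes in this respect. The 4328 other lncRNA genes tested moved by a median of 0.70 on the log2 scale, with 1182 higher (27.3%) and 97 lower (2.24%). Among the 2685 of them that also reached 10 reads in each library, 34.3% were higher and 3.09% lower with a median of 0.60, and among the members 39.4% and 2.09%. Genes named as antisense (820 tested) had a median of 0.51 and genes beginning LINC (565 tested) one of 0.61. How often a member was called followed its read depth: 18 of the 112 least expressed members were higher, 44 of the middle 111 and 70 of the 112 most expressed, with medians of 0.57, 0.67 and 0.76. Single-exon members (93) had a median of 0.70 and those with more exons (242) one of 0.72.

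**Figure D1:**
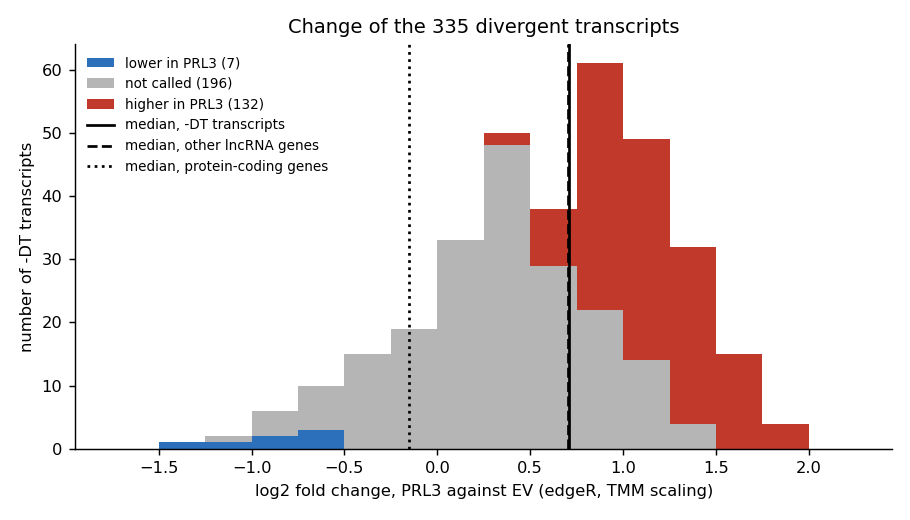
Histogram of the log2 fold change (PRL3 against EV, TMM scaling) of the 335 divergent transcripts in bins of 0.25, coloured by the edgeR call, with vertical lines at the medians of the members, of other lncRNA genes and of protein-coding genes. The median of the members (0.71) nearly coincides with that of other lncRNA genes (0.70) and lies right of that of protein-coding genes (-0.15); the 132 called higher lie in the right part. With scaling by all uniquely aligned reads the members' median was 0.24.

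The scaling set how many members were called. When each library was scaled by all its uniquely aligned reads, 35 members were higher and 20 lower (over all genes 8.17% and 35.5%), and all 35 were among the 132. When only the 8999 genes that are not protein coding were fitted, 20 members were higher and 21 lower (over those genes 7.25% and 13.0%), and the members' median was 0.08. By library size alone 217 were higher and 0 lower. The median of all genes moved with the scaling, from -0.36 with uniquely aligned reads through 0.07 with RLE and 0.29 with the upper quartile to 0.60 with library size. Such a change of scaling shifts every gene by nearly the same amount, so it leaves the distance between medians as it was: with TMM the members' median stood 0.60 above that of all genes, and that of other lncRNA genes 0.59 above it. In the fit of genes that are not protein coding, where the set of genes itself differs, both stood 0.02 above it.

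The call also depended on single libraries. Without PRL3 B11 there were 68 members higher, without B10 80, without B9 91 and without EV B3 158, and the lower members numbered 3 to 8 over the 6 fits that left out 1 library. An adjusted p of 0.01 left 61 higher and 4 lower.

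Under all 6 choices of scaling, including the fit of noncoding genes alone, 20 divergent transcripts were higher in PRL3 cells and 0 lower. The fit of noncoding genes alone set this number, as it called 20 of the 335 members higher. Of its 8999 genes, 7.25% were higher, so the share among the members was not above that of noncoding genes. They are CDC20-DT, TIMMDC1-DT, WDR5B-DT, STAG1-DT, TSPAN5-DT, OSMR-DT, SH3TC2-DT, H2AZ2-DT, RBM33-DT, SNX30-DT, SUV39H2-DT, RPP38-DT, STAM-DT, FAM111A-DT, ANKRD42-DT, LLPH-DT, TMED2-DT, RSL1D1-DT, ZKSCAN2-DT and DNAJA2-DT, a set defined after the values had been seen. Their log2 fold changes ran from 1.28 (WDR5B-DT) to 1.88 (RPP38-DT) with TMM and from 0.81 (WDR5B-DT) to 1.39 (TIMMDC1-DT) with uniquely aligned reads. RPP38-DT, beside the gene of a protein subunit of RNase P, had 91.3, 103 and 44.6 normalized counts in the EV libraries and 306, 312 and 262 in the PRL3 libraries. CDC20-DT, beside the gene of an activator of the anaphase-promoting complex, had 77.9, 148 and 165 normalized counts in the EV libraries and 361, 376 and 403 in the PRL3 libraries. In both the groups stood well apart, and the PRL3 libraries differed little among themselves.

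The 6 higher transcripts with the smallest p among those without overlap between the groups lay beside genes of varied function. ZKSCAN2-DT (chr16:25257952-25261066, plus strand) is a single-exon transcript beside the gene of a zinc finger protein with KRAB and SCAN domains. It had 699, 719 and 892 normalized counts in the EV libraries and 1954, 2392 and 1962 in the PRL3 libraries. Its log2 fold change was 1.45 ± 0.17 (SE, adjusted p = 3.1e-05). ZKSCAN2 itself was higher too, at 0.87 ± 0.15 (SE, adjusted p = 5.5e-04), and per kilobase of exon the divergent transcript stood at 103% of the coding gene in EV and 153% in PRL3. The log2 change of this ratio, 0.58 ± 0.19 (SE, adjusted p = 0.0501), was not called in the fit of ratios. With limma on log ratios it was called (adjusted p = 0.015).

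SH3TC2-DT (chr5:149063239-149129578, plus strand) lies beside the gene of a recycling endosome protein that is mutated in a hereditary neuropathy, and is the most abundant member by mean normalized count. The values were 1608, 1627 and 2285 normalized counts in the EV libraries and 5592, 4464 and 4628 in the PRL3 libraries, with a log2 fold change of 1.41 ± 0.18 (SE, adjusted p = 4.6e-05). SH3TC2 rose by less, 0.49 ± 0.14 (SE, adjusted p = 0.014). TMED2-DT (chr12:123575891-123585115, minus strand) lies beside the gene of a p24 cargo receptor of vesicles between endoplasmic reticulum and Golgi. It had 248, 292 and 466 normalized counts in the EV libraries and 1087, 1019 and 1029 in the PRL3 libraries, a log2 fold change of 1.63 ± 0.23 (SE, adjusted p = 1.1e-04). Here the coding gene moved the other way: TMED2 had 9800.3, 7242 and 6471 normalized counts in EV and 3684, 4107 and 4126 in PRL3, a log2 fold change of -0.98 ± 0.17 (SE, adjusted p = 5.2e-04).

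ANKRD42-DT (chr11:83184491-83193794, minus strand), beside the gene of an ankyrin repeat protein, had 881, 1094 and 1489 normalized counts in the EV libraries and 2929, 2627 and 2997 in the PRL3 libraries. It rose by 1.30 ± 0.19 (SE, adjusted p = 1.5e-04) on the log2 scale. ANKRD42 was not called at -0.11 ± 0.16 (SE, adjusted p = 0.63), and the divergent transcript went from 195% to 519% of its level per kilobase. STAG1-DT (chr3:136752630-136755780, plus strand), beside the gene of a cohesin subunit, had 109.6, 142 and 203 normalized counts in the EV libraries and 519, 429 and 493 in the PRL3 libraries. Its log2 fold change was 1.66 ± 0.26 (SE, adjusted p = 2.6e-04), against -0.26 ± 0.18 (SE, adjusted p = 0.28) for STAG1, which was not called. TMEM161B-DT (chr5:88268864-88439337, plus strand), beside the gene of a multipass membrane protein, had 887, 786 and 1161 normalized counts in the EV libraries and 1941, 1978 and 2190.0 in the PRL3 libraries. It changed by 1.11 ± 0.18 (SE, adjusted p = 2.8e-04) and TMEM161B by 0.93 ± 0.18 (SE, adjusted p = 0.0011), so that both were called higher with TMM. All 6 divergent transcripts remained called under each scaling of the whole gene table and without any 1 library. Calls on their coding genes changed with uniquely aligned reads: ZKSCAN2 (0.40, adjusted p = 0.067), SH3TC2 (0.02, adjusted p = 0.95) and TMEM161B (0.45, adjusted p = 0.074) were then not called, and ANKRD42 (-0.58, adjusted p = 0.014) and STAG1 (-0.74, adjusted p = 0.0069) were called lower. SH3TC2 also lost its call without PRL3 B10 (adjusted p = 0.062).

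The 6 lower transcripts with the smallest p among those without overlap had log2 fold changes of -0.61 to -1.28. C2orf74-DT (chr2:61141592-61144969, minus strand) had 935, 898 and 839 normalized counts in the EV libraries and 484, 580.4 and 488 in the PRL3 libraries, a log2 fold change of -0.78 ± 0.18 (SE, adjusted p = 0.003). CRIM1-DT (chr2:36354744-36355471, minus strand) lies beside the gene of a transmembrane protein that binds bone morphogenetic proteins. It had 751, 534 and 610.1 normalized counts in the EV libraries and 260.5, 356 and 405 in the PRL3 libraries, a log2 fold change of -0.89 ± 0.23 (SE, adjusted p = 0.0064). CRIM1 went the other way, with 27643, 25446 and 31409.9 normalized counts in EV and 53856, 57935 and 50189.6 in PRL3, 0.94 ± 0.15 (SE, adjusted p = 3.3e-04), though CRIM1 was not called with uniquely aligned reads (0.47, adjusted p = 0.056). RNASEH1-DT (chr2:3558419-3564842, plus strand), beside the gene of the nuclease that cuts RNA paired with DNA, had 1325, 1180.3 and 926 normalized counts in the EV libraries and 753, 644 and 721 in the PRL3 libraries. It fell by 0.70 on the log2 scale (adjusted p = 0.0078), whereas RNASEH1 was not called with TMM (0.19 ± 0.14, SE, adjusted p = 0.30). RNASEH1 was called higher with upper-quartile scaling (0.37, adjusted p = 0.040) and with library size alone (0.68, adjusted p = 0.0014). With uniquely aligned reads RNASEH1 was not called (-0.29, adjusted p = 0.16).

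ZDHHC12-DT (chr9:128724435-128733199, plus strand), beside the gene of a palmitoyltransferase, had 207, 169.6 and 242 normalized counts in the EV libraries and 109, 98.2 and 90.0 in the PRL3 libraries. Its log2 fold change was -1.06 ± 0.29 (SE, adjusted p = 0.0097), and ZDHHC12 fell more, by 2.05 ± 0.21 (SE, adjusted p = 1.6e-05). TBC1D22A-DT (chr22:46761893-46762564, minus strand), beside the gene of a TBC domain protein of the kind that acts on Rab GTPases, had 643, 831 and 814 normalized counts in the EV libraries and 407, 532 and 557 in the PRL3 libraries, a log2 fold change of -0.61 ± 0.20 (SE, adjusted p = 0.024). ING2-DT (chr4:183494884-183504494, minus strand), beside the gene of a reader of methylated histone H3, had 181, 129 and 477 normalized counts in the EV libraries and 83.4, 127 and 116 in the PRL3 libraries. Its log2 fold change was -1.28 ± 0.43 (SE, adjusted p = 0.027), and without EV B3 it was -0.52 with an adjusted p of 0.19. It also lost the call without any 1 PRL3 library (adjusted p 0.054 to 0.11). The seventh lower member was ZNF8-DT, at -0.72 ± 0.27 (SE, adjusted p = 0.0455). By library size alone none of the 6 was called, with adjusted p from 0.13 to 0.62, and TBC1D22A-DT lost its call with upper-quartile scaling (-0.44, adjusted p = 0.091), without EV B2 or without any 1 PRL3 library (adjusted p 0.0502 to 0.13). ZDHHC12-DT lost its call without PRL3 B11 (adjusted p = 0.056).

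**Figure D2:**
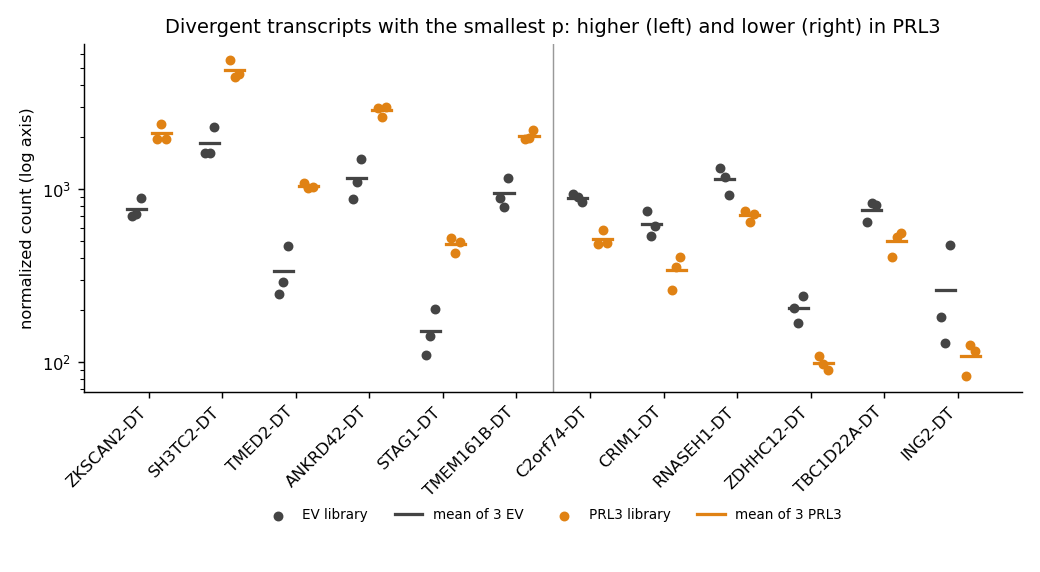
Normalized counts on a log axis of the 6 higher (left of the line) and 6 lower (right) divergent transcripts with the smallest p among those whose groups do not overlap, 1 point per library with the mean of 3 as a bar. In STAG1-DT, for example, the libraries lie at 110 to 203 in EV and at 429 to 519 in PRL3, and in ING2-DT 1 EV library (477) sets the EV mean; by library size alone the 6 lower transcripts were not called.

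Other abundant members rose less. GARS1-DT, beside the gene of glycyl-tRNA synthetase, had 1555, 1334 and 1576 normalized counts in the EV libraries and 2792, 2274 and 2452 in the PRL3 libraries, a log2 fold change of 0.75 ± 0.16 (SE, adjusted p = 0.0017). RIPK2-DT, beside the gene of the kinase that signals from the NOD receptors, had 1241, 1378 and 1605 normalized counts in the EV libraries and 2034, 2023 and 2974 in the PRL3 libraries. Its log2 fold change was 0.73 ± 0.19 (SE, adjusted p = 0.0063), and 0.54 with an adjusted p of 0.054 without PRL3 B11. RAB30-DT, beside the gene of a Golgi Rab GTPase, had 1232, 1183 and 1518 normalized counts in the EV libraries and 1795, 2215 and 2408 in the PRL3 libraries and a log2 fold change of 0.71 ± 0.17 (SE, adjusted p = 0.0049). When scaled by uniquely aligned reads, GARS1-DT, RIPK2-DT and RAB30-DT were not called, at 0.24 to 0.27.

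Members near the floor show what values at its edge look like. ZNF470-DT had 18.3, 21.7 and 14.5 normalized counts in the EV libraries and 11.3, 17.9 and 21.4 in the PRL3 libraries, and LAPTM4A-DT 18.3, 18.0 and 10.0 and 41.2, 22.3 and 37.5. Just outside, with 9 reads in the lowest library, were CSE1L-DT, LRRC8D-DT and R3HDM2-DT, with 9 to 177, 9 to 85 and 9 to 91 reads over the 6 libraries. Of all -DT genes below the floor, 108 passed the filter on low counts, a filter that a gene can pass through 1 group alone, and of these 16 were higher and 0 lower.

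Each divergent transcript was next set against its own coding gene, since the ratio of a pair within a library does not depend on the scaling between libraries. The level per kilobase of exon of a divergent transcript had a median log2 ratio of -2.69 ± 0.32 (SD, n = 3) to that of its coding gene in EV libraries and of -2.03 ± 0.06 in PRL3 libraries. EV B3 was the EV library nearest to PRL3, and the groups did not overlap. Expressed per pair, the divergent transcript stood at a median of 15.6% of its coding gene per kilobase in EV and 25.0% in PRL3. Exon lengths were those of GENCODE release 44, while reads had been counted on the exons of Ensembl release 91, so a level per kilobase is approximate where the gene models differ. Reads of the divergent transcripts were counted by strand, so the coding gene's reads on the other strand were kept apart from them. All counts used here are of reads on exons. For exon reads the study named splicing during transcription and carry-over of some mRNA as potential confounders, and it turned to introns.

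Of 332 pairs in the fit of ratios, 120 had a higher ratio in PRL3 cells and 5 a lower one, with a median log2 change of 0.76 (interquartile range 0.21 to 1.32) and 273 above 0. In the whole table of 3585 head-to-head pairs, 24.5% were higher and 11.1% lower, a background that also holds pairs of coding genes. In the 1598 pairs of another noncoding gene with a coding gene, 28.7% were higher and 4.07% lower with a median of 0.76. In the 1537 pairs of coding genes, where the gene on the minus strand was set against the one on the plus strand, 18.1% were higher and 21.1% lower with a median of -0.01. The sign of their change is arbitrary, so a median near 0 follows from the order by strand and is no control for the other classes. The median change of the divergent transcripts was thus close to that of other noncoding genes paired in this table. Those pairs have starts up to 5 kb apart on opposite strands, crossing starts included, so not all share a promoter region. With the other noncoding genes limited to starts within 1 kb, the medians were 0.758 for the divergent transcripts and 0.727 for the other noncoding genes. Leaving out 1 library gave 55 (without PRL3 B11), 59 (without B9), 64 (without B10) and up to 147 (without EV B3) pairs with a higher ratio, and 1 to 7 with a lower one.

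**Figure D3:**
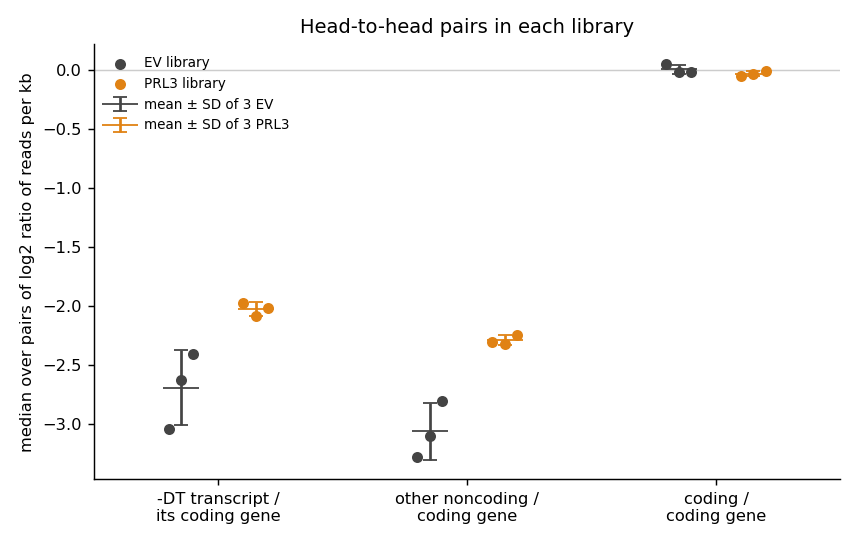
Median over pairs of the log2 ratio of reads per kilobase of exon in each of the 6 libraries, with mean ± SD of 3 libraries, for divergent transcripts and their coding genes, for other noncoding genes paired head to head with a coding gene, and for pairs of coding genes. The first class lies between -3.04 and -2.41 in EV and between -2.09 and -1.97 in PRL3, and other noncoding genes shift alike. Pairs of coding genes lie near 0, which follows from their order by strand alone.

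A higher ratio came about in different ways. Of the 120 pairs, 70 had a divergent transcript that was called higher, 69 had a coding gene that was called lower, 26 had both and 7 neither, all with TMM scaling. Among all members, 32 of the 132 that were higher had a coding gene that was higher as well, 26 one that was lower and 72 one that was not called. Over the 332 pairs the log2 fold changes of both genes had a Pearson correlation of 0.06 and a Spearman correlation of 0.05, given as a description across pairs that share the same libraries. The coding genes of the members were 59 higher and 88 lower with a median of -0.05, and they were 159 higher and 45 lower with a median of 0.44 by library size alone, and 7 higher and 172 lower with a median of -0.53 with uniquely aligned reads. Where the coding gene was lower, the ratio was higher in 69 of 88 pairs and lower in 0, and where the coding gene was higher, in 4 and 3 of 59. The coding gene is the denominator of the ratio, so this split largely follows from how the ratio is built. The divergent transcripts themselves had medians of 0.58, 0.73 and 0.72 where the coding gene was lower, not called and higher.

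**Figure D4:**
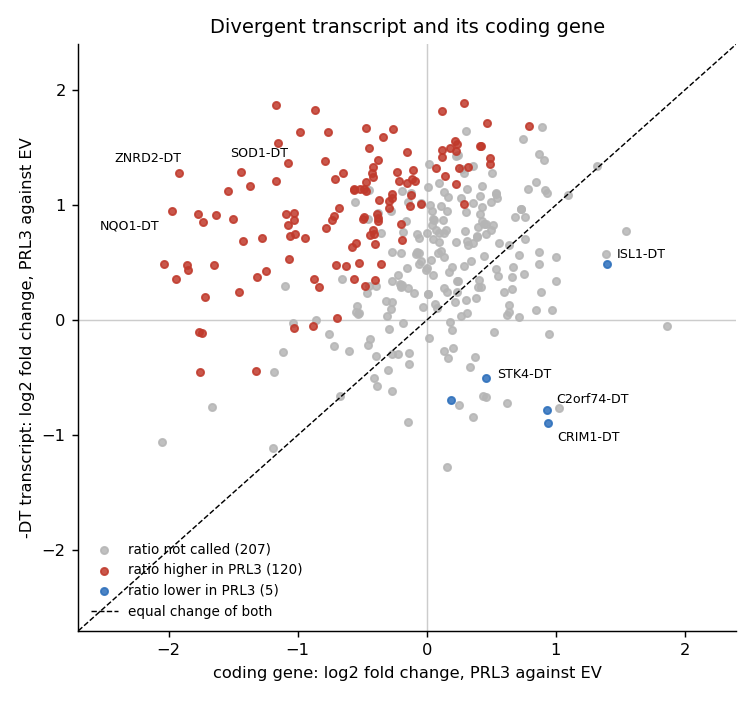
Log2 fold change of each divergent transcript (vertical) against that of its coding gene (horizontal), 1 point per pair, 332 pairs with TMM scaling, coloured by the call on the ratio; the dashed line marks equal change. The 120 pairs with a higher ratio lie above the line on both sides of 0 on the horizontal axis, the 5 with a lower ratio lie below it, and the cloud has little slope (Pearson r of 0.06).

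The 4 pairs with the largest gain of the divergent transcript had coding genes that fell, and a lower coding gene raises the ratio by itself. In ZNRD2-DT (chr11:65568482-65570458, minus strand), the log2 ratio of reads, not per length, to ZNRD2, which encodes a zinc ribbon protein, was -5.02, -4.36 and -4.29 in EV and -1.06, -1.47 and -1.42 in PRL3 libraries, a change of 3.24 ± 0.26 (SE, adjusted p = 0.0018). The transcript itself had 195, 383 and 282 normalized counts in the EV libraries and 736, 743 and 611 in the PRL3 libraries, and ZNRD2 had 6357, 7843 and 5536 normalized counts in EV and 1539, 2053 and 1630.5 in PRL3. Per kilobase, the divergent transcript went from 4.36% to 40.0% of the coding gene. Both genes contributed, with log2 fold changes of 1.28 ± 0.25 and -1.92 ± 0.18 (SE).

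TIMMDC1-DT (chr3:119497678-119498181, minus strand), beside the gene of an assembly factor of respiratory complex I, had 23.1, 39.7 and 32.7 normalized counts in the EV libraries and 110.2, 101 and 140.4 in the PRL3 libraries. Its ratio to TIMMDC1 changed by 3.03 ± 0.36 (SE, adjusted p = 0.0024). NQO1-DT (chr16:69726768-69742563, plus strand), beside the gene of a quinone reductase that answers to oxidative stress, had 141, 136 and 121 normalized counts in the EV libraries and 203, 247 and 317 in the PRL3 libraries. NQO1 had 41862, 40504 and 32317 normalized counts in EV and 9459.8, 10475 and 9203 in PRL3, and the ratio changed by 2.89 ± 0.23 (SE, adjusted p = 0.0018). The rise of NQO1-DT itself lost its call without PRL3 B11 and with uniquely aligned reads (log2 fold changes of 0.77 and 0.46). SOD1-DT (chr21:31653593-31659500, minus strand), beside the gene of cytosolic superoxide dismutase, had 65.8, 13.2 and 27.3 normalized counts in the EV libraries and 93.7, 81.1 and 84.7 in the PRL3 libraries, which was not called (adjusted p = 0.066) with EV B1 high among the EV libraries. Without EV B1 its log2 fold change was 2.08, with an adjusted p of 0.0060, and it was also called with upper-quartile scaling (1.49, adjusted p = 0.033). Its ratio changed by 2.82 ± 0.45 (SE, adjusted p = 0.0044), and SOD1 had 18209.7, 15729 and 11358 normalized counts in EV and 4941, 6239.5 and 5541 in PRL3. Even so, SOD1-DT reached only 1.37% of SOD1 per kilobase in PRL3 cells, after 0.21% in EV.

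In the 4 pairs with the largest loss, the coding gene had a positive fold change with TMM (for STK4, -0.02 with uniquely aligned reads). A higher coding gene lowers the ratio by itself. The log2 ratio of CRIM1-DT to CRIM1 was -5.20, -5.57 and -5.68 in EV and -7.69, -7.35 and -6.95 in PRL3 libraries, a change of -1.84 ± 0.27 (SE, adjusted p = 0.0034). C2orf74-DT, which exceeds its coding gene in all libraries (929% and 279.7% per kilobase), changed by -1.94 ± 0.63 (SE, adjusted p = 0.0486), with only 14.4 to 99.9 normalized counts on C2orf74. STK4-DT (chr20:44963794-44966959, minus strand), beside the gene of the Hippo pathway kinase MST1, had 76.7, 96.3 and 106 normalized counts in the EV libraries and 68.0, 61.0 and 68.6 in the PRL3 libraries and was not called, while its ratio changed by -0.97 ± 0.27 (SE, adjusted p = 0.029). ISL1-DT (chr5:51372736-51383332, minus strand), beside the gene of a LIM homeodomain transcription factor, had 177, 203 and 175 normalized counts in the EV libraries and 238, 281 and 260.5 in the PRL3 libraries. ISL1 had 559, 565 and 661 normalized counts in EV and 1503, 1689 and 1520.0 in PRL3, and the ratio changed by -0.91 ± 0.26 (SE, adjusted p = 0.032). The calls on C2orf74-DT, STK4-DT and ISL1-DT were lost when any 1 PRL3 library was left out (adjusted p 0.082 to 0.14), whereas that on CRIM1-DT was kept. They were also lost when either of 2 EV libraries was left out (adjusted p 0.053 to 0.10), B1 or B2 for C2orf74-DT and ISL1-DT and B2 or B3 for STK4-DT, and the last also with limma on log ratios (adjusted p = 0.071).

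Because the study concerned genes of endomembrane vesicles, the members beside V-ATPase genes were followed by name. ATP6V0D1-DT (chr16:67481314-67505977, plus strand), beside the gene of a subunit of the membrane sector of the proton pump, had 140.1, 148 and 182 normalized counts in the EV libraries and 382, 352 and 295 in the PRL3 libraries, a log2 fold change of 1.13 ± 0.25 (SE, adjusted p = 0.0025). ATP6V0D1 had 3469.7, 4446 and 3706 normalized counts in EV and 2552, 2793 and 2502 in PRL3, and the ratio changed by 1.69 ± 0.23 (SE, adjusted p = 0.0031). ATP6V0D1 itself was called lower with TMM, at -0.57 ± 0.15 (SE, adjusted p = 0.0087). That call was lost with upper-quartile scaling (-0.39, adjusted p = 0.052) and with library size alone (-0.07, adjusted p = 0.70). It was also lost without PRL3 B11 (-0.53, adjusted p = 0.054). ATP6AP1-DT (chrX:154424378-154428526, minus strand), beside the gene of an accessory subunit of the pump, had 92.6, 119 and 34.6 normalized counts in the EV libraries and 32.9, 43.9 and 36.4 in the PRL3 libraries. The groups overlapped and it was not called (adjusted p = 0.089), although without EV B3 its log2 fold change was -1.49 with an adjusted p of 0.0064. ATP6AP1 had a log2 fold change of -1.19 ± 0.17 (SE, adjusted p = 1.2e-04). The ratio of this pair was not called, with a change of 0.20 ± 0.48 (SE, adjusted p = 0.77).

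The coding genes were then grouped by role, in groups drawn up after the values had been seen, and the counts, with TMM scaling for single genes, describe them without a test. Over all members, 39.4% of divergent transcripts were higher, and 17.8% of coding genes were higher and 26.5% lower. The ratio was higher in 36.1% of member pairs and lower in 1.51%. The 201 members in no group had 73 higher and 5 lower, and the ratio was higher in 60 and lower in 4 at a median of 0.72. Among 17 genes of energy and redox metabolism, 10 divergent transcripts and 2 coding genes were higher, 9 coding genes were lower, and the ratio was higher in 13 pairs and lower in 0, with a median change of 1.77. GAPDH-DT, beside the glycolytic gene GAPDH, had 268, 280.3 and 387 normalized counts in the EV libraries and 328, 457 and 412 in the PRL3 libraries and was not called, but GAPDH fell by 1.94 on the log2 scale and the ratio changed by 2.31 ± 0.35 (SE, adjusted p = 0.0037). HK2-DT, beside the hexokinase gene HK2, had a ratio change of -0.50 ± 0.18 (SE, adjusted p = 0.067) and was not called. Among 17 genes of translation and protein targeting, 10 divergent transcripts were higher, 1 coding gene was higher and 9 were lower, and the ratio was higher in 13, with a median of 1.31. MRPL20-DT, beside a gene of the mitochondrial ribosome, had 787, 1013 and 871 normalized counts in the EV libraries and 1481, 1745 and 1696 in the PRL3 libraries, and its ratio changed by 2.38 ± 0.20 (SE, adjusted p = 0.0018). BTF3-DT, beside the gene of a subunit of the nascent polypeptide-associated complex, had 223, 369 and 338 normalized counts in the EV libraries and 483, 621 and 658 in the PRL3 libraries and a ratio change of 2.69 ± 0.33 (SE, adjusted p = 0.0024).

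Vesicle traffic, endosomes and lysosomes counted 23 pairs, with 7 divergent transcripts higher and 1 lower, 4 coding genes higher and 10 lower, and the ratio higher in 12, at a median of 1.01. Besides TMED2-DT, these included STAM-DT and SNX30-DT, beside genes of endosomal sorting, with log2 fold changes of 1.56 ± 0.32 and 1.71 ± 0.37 (SE, adjusted p = 0.0015 and 0.0024). RRAGC-DT, beside the gene of a Rag GTPase of the lysosomal surface, changed by 1.23 ± 0.34 (SE, adjusted p = 0.011) while RRAGC changed by -0.71 ± 0.24 (SE, adjusted p = 0.028). LAPTM4A-DT, beside the gene of a lysosomal membrane protein, had few reads and was not called, but its ratio changed by 2.68 ± 0.44 (SE, adjusted p = 0.0048). Among 18 genes of the cell cycle and chromosome structure, 8 divergent transcripts were higher, 3 coding genes were higher and 6 lower, and the ratio was higher in 10, at a median of 1.20. H2AZ2-DT, beside the gene of a variant of histone H2A.Z, had 34.1, 79.4 and 105 normalized counts in the EV libraries and 235, 215 and 328 in the PRL3 libraries, a log2 fold change of 1.82 ± 0.38 (SE, adjusted p = 0.0019).

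In 23 pairs of transcription and RNA processing genes, 12 divergent transcripts were higher, 4 coding genes were higher and 5 lower, and the ratio was higher in 6 pairs at a median of 0.83. In 20 pairs of signalling genes, 9 divergent transcripts were higher, 2 coding genes were higher and 2 lower, and the ratio was higher in 6 and lower in 1 at a median of 0.68. GSK3B-DT, beside the gene of glycogen synthase kinase 3 beta, had 466, 514 and 751 normalized counts in the EV libraries and 1147, 1460.0 and 1405 in the PRL3 libraries and a log2 fold change of 1.21 ± 0.21 (SE, adjusted p = 4.5e-04), with GSK3B not called. DUSP5-DT, beside the gene of a phosphatase of ERK, rose together with it, at 1.34 ± 0.33 (SE, adjusted p = 0.0051) and 1.32 ± 0.19 (SE, adjusted p = 1.3e-04).

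The 16 zinc finger genes (symbols beginning ZNF or ZKSCAN, and ZFP28) had the lowest medians of the 7 groups for the divergent transcripts and the ratio, and the highest for the coding genes. Among them, 3 divergent transcripts were higher and 1 was lower at a median log2 fold change of 0.26 (-0.23 with uniquely aligned reads and -0.40 in the fit of noncoding genes alone), 8 coding genes were higher and 1 lower at a median of 0.57, and the ratio was called in 0 pairs at a median of -0.34. ZNF8-DT had 296, 395 and 226 normalized counts in the EV libraries and 156, 204 and 194 in the PRL3 libraries, and its ratio to ZNF8 changed by -1.33 ± 0.45 (SE, adjusted p = 0.056). ZNF691-DT was higher at 1.08 ± 0.23 (SE, adjusted p = 0.0023). The counts of higher divergent transcripts fell with other references: with uniquely aligned reads 2 were higher in energy and redox metabolism, 3 in translation, 4 in vesicle traffic, 4 in the cell cycle, 2 in transcription, 1 in signalling and 1 among the zinc finger genes, and in the fit of noncoding genes alone 1, 2, 3, 3, 1, 0 and 1. Role groups were not compared by a test with all member pairs (36.1% higher) or with the background of all pairs (24.5% higher).

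**Figure D5:**
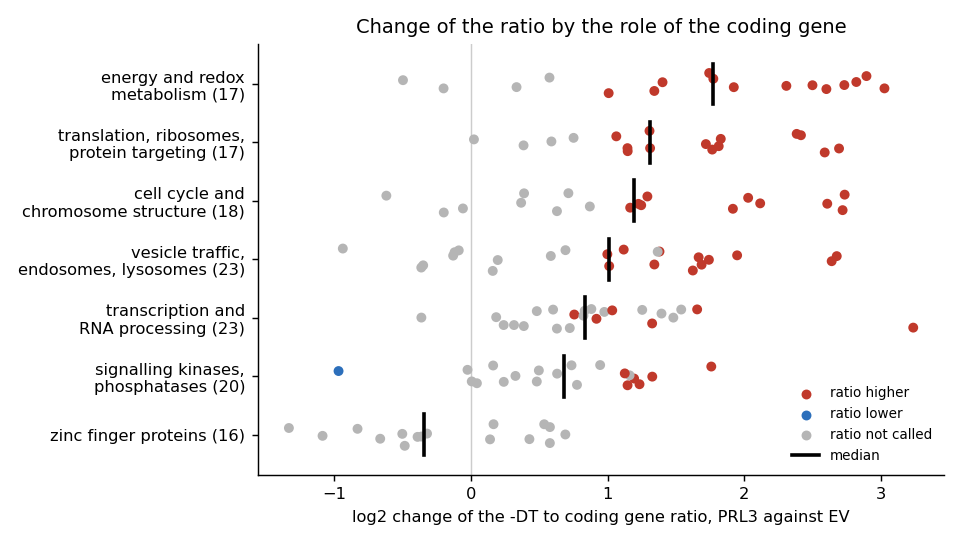
Log2 change of the ratio of divergent transcript to coding gene, 1 point per pair, for 7 groups of coding genes drawn up after the values had been seen (number of pairs in brackets), coloured by the call, with the median as a bar. Medians run from -0.34 for zinc finger proteins to 1.77 for energy and redox metabolism.

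Distance and sequence were described in the same way. With crossing starts 5 of 17 members were higher (median log2 fold change 0.85), at 0 to 100 bp 30 of 62 (0.76), at over 100 and up to 300 bp 62 of 153 (0.71), at over 300 and up to 1000 bp 28 of 74 (0.75) and above 1000 bp 6 of 28 (0.47, and -0.14 in the fit of noncoding genes alone). The median ratio change of these groups was 1.01, 0.95, 0.72, 0.85 and 0.49. Members with AATAAA in the first 1000 bases (124) had 51 higher and a median of 0.66, and those without it (211) 81 higher and a median of 0.73. The 6 members that overlap a coding gene on their own strand, whose reads could be mixed with it, had 2 higher, and without them 130 of 329 were higher. PAPOLA-DT, which crosses the start of the gene of the nuclear poly(A) polymerase by its gene bounds, had 45.1, 108 and 159 normalized counts in the EV libraries and 127, 158 and 145 in the PRL3 libraries. It was not called at 0.45 ± 0.40 (SE, adjusted p = 0.4), and the groups overlapped.

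Last, genes of transcription termination, RNA cleavage and RNA decay, and of the proteins of the U1 particle, were read from 3 lists. The values are reads on exons in the labelled RNA and not protein. A list can hold genes of different roles. Of 19 genes of the nuclear exosome and its targeting complexes, 3 were higher and 5 lower (median -0.23), where 15.2% of all protein-coding genes tested were higher and 31.6% lower (median -0.15). EXOSC4 and EXOSC5, of the exosome ring, had log2 fold changes of -1.74 ± 0.20 (SE, adjusted p = 2.8e-05) and -1.35 ± 0.19 (SE, adjusted p = 1.2e-04), while RBM7, of the complex that brings short noncoding RNA to the exosome, had 1.18 ± 0.23 (SE, adjusted p = 0.0011). Of 22 genes of the Integrator complex and other early termination factors, 2 were higher and 7 lower (median -0.27). INTS11, the endonuclease of Integrator, changed by -1.39 ± 0.16 (SE, adjusted p = 2.6e-05) and SRRT, which binds the cap-binding complex, by -1.05 ± 0.17 (SE, adjusted p = 2.8e-04). Of 21 genes of cleavage and polyadenylation, XRN2 and the U1 proteins, 1 was higher and 10 lower (median -0.37). SNRPC, of the U1 particle, changed by -1.55 ± 0.15 (SE, adjusted p = 1.4e-05) and CPSF1, a subunit of the cleavage complex, by -1.31 ± 0.18 (SE, adjusted p = 9.0e-05). With library size alone the medians of the 3 lists were 0.26, 0.23 and 0.13 with 7, 8 and 5 genes higher and 3, 4 and 4 lower. With uniquely aligned reads they were -0.70, -0.75 and -0.85 with 1, 0 and 0 genes higher and 11, 16 and 17 lower, so their direction depends on the scaling. The distance from the median of all genes was -0.34, -0.38 and -0.48 with TMM, and -0.26 for protein-coding genes. Whether these genes and the divergent transcripts are linked was not tested.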

How the data were processed

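RNA labelled with 4sU was sequenced in 6 libraries, 3 EV and 3 PRL3. The deposited values are raw read counts per Ensembl gene, which the authors made with STAR 2.5.1b and htseq-count of HTSeq 0.6.1, with reverse strand and Ensembl release 91, on GRCh38 (FastQC 0.11.3 is also listed). Symbols, exons and starts came from GENCODE release 44 on the same build, which matched 57532 of 58243 identifiers. The lines for reads on no feature or ambiguous were kept out of the tests and used only in 1 scaling.

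Counts were fitted in R 4.3.3 with edgeR 4.0.16 (TMM scaling, filterByExpr, quasi-likelihood test, no covariate), with Benjamini-Hochberg adjustment over 23884 genes and a threshold of 0.05. For normalized counts, reads were scaled to the mean effective library size (total times TMM factor). SE is derived from the F statistic. For ratios, each row held both genes of a pair in each library, for genes on opposite strands with starts within 5 kb or paired by the -DT name, and the effect of PRL3 on their ratio was tested with the library as a block, adjusted over 3585 pairs. Both fits were tested on simulated counts, in which the genes were drawn independently of each other. The difference between the groups in reads outside exons was not simulated, so the simulation does not bear on it. Alternatives were RLE, upper-quartile, library-size and unique-read scaling, DESeq2 1.42.0, limma and voom (limma 3.58.1), other filters, thresholds and floors, noncoding genes alone, and leaving out each library.

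Promoter letters were read from the GRCh38 genome sequence. Counting error and library number limit the precision, and depth was 36532207 to 57952035 reads on genes. Named are the 6 higher and 6 lower members with the smallest p and no overlap, the 6 most abundant, the 4 pairs with the most positive and the 4 with the most negative called ratio change, members of the V-ATPase and of the listed machinery, 3 members inside and 3 -DT genes outside the floor, and the 2 genes with the smallest p in each list; the other named genes were chosen after their values were seen. Some of these members and sequences are not reported here. Members and lists were chosen with earlier results of these data known.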

Additional observations from a re-analysis of the deposited data

Results flagged for a closer look

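The counts of reads that fell on no exon of the counted strand stand outside the comparisons of divergent transcripts. Of all uniquely aligned reads, they made up 66.27% in PRL3 libraries (SD 3.18, n = 3), above the 33.3% of the EV control libraries (SD 6.75, n = 3), and every PRL3 library lay above every EV library. An exact two-sided permutation test gives p = 0.1, the smallest that 3 against 3 libraries allow. The positions of these reads were not analysed here, and their part in the ratio of divergent transcript to coding gene was not tested.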

How the results depend on the processing

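With TMM, 132 members were higher and 7 lower, with a median log2 fold change of 0.71. Scaling by all uniquely aligned reads gave 35, 20 and 0.24, library size alone 217, 0 and 1.19, and the fit of genes other than protein-coding ones 20, 21 and 0.076. At an adjusted p of 0.01 there were 61 higher and 4 lower. RLE and upper-quartile scaling, DESeq2, limma-voom, both other filters, both other floors and the removal of members that overlap a coding gene on their strand (added after seeing the data) kept these 3 values within the limits set (counts within 1.5 times). Leaving out each library in turn gave 68 to 158 higher, 3 to 8 lower and a median of 0.63 to 0.83. For the ratio within pairs, 120 higher and 5 lower at a median of 0.76, leaving out each library gave 55 to 147, 1 to 7 and 0.60 to 0.90. An adjusted p of 0.01 left 49 and 1, and at least 10 counts in every library gave 10 lower. The depth of the lowest members, near 10 reads, limits what can be called among them.

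Of the values for 58 named genes, 16 turned sign, none of them called both ways. With uniquely aligned reads these were PAPOLA-DT (-0.0019), RNASEH1 (-0.29), ING2 (-0.33), RIPK2 (-0.092) and STK4 (-0.021). With library size they were ZNF470-DT (0.39), ANKRD42 (0.38), STAG1 (0.23), TBC1D22A (0.22) and PAPOLA (0.35), and with the upper quartile ZNF470-DT (0.072), ANKRD42 (0.071) and PAPOLA (0.037). Leaving out each library in turn gave -0.30 (without PRL3 B11) to 0.12 (without PRL3 B9; 0.059 without EV B2) for ZNF470-DT and -0.31 (without EV B3) to 0.20 (without EV B1) for PAPOLA. Of the ratios of named pairs, 3 turned sign when a library was left out, RAB30-DT (-0.28 without EV B3 to 0.11 without EV B2), PAPOLA-DT (-0.081 without EV B1 to 1.20 without EV B3) and ATP6AP1-DT (-0.32 without EV B3 to 0.49 without EV B2). The cause was not tested. No paired analysis was possible because no number is shared by EV and PRL3 libraries.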
